A study of Mus musculus with 20 samples.

Results

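Citrate and the dicarboxylates succinate, malate and 2-oxoglutarate are intermediates of the citric acid cycle that hepatocytes take up from blood and move between mitochondria and cytosol. Sodium-coupled transporters of the SLC13 family bring them across the plasma membrane. Carriers of the SLC25 family exchange them across the inner mitochondrial membrane, and citrate exported in this way is cleaved to acetyl-CoA for fatty acid and sterol synthesis. The 6 genes described here are 4 members of the first family, Slc13a2, Slc13a3, Slc13a4 and Slc13a5, and 2 of the second, Slc25a1 and Slc25a10. They were picked by name out of the 55421 genes of the count table. The set was chosen with earlier results of these data known, since Slc13a3 had been called lower at 3 weeks. Fold changes of these 6 genes that use the 3-week libraries are therefore given below as descriptions without a p. Genes outside the set are tested in all contrasts, but the gene lists were also chosen with earlier results of these data known. Their p-values and counts of calls carry that choice and are to be read as descriptions. All 6 were among the 22867 genes with at least 10 counts in total, and 5 of them had a mean of at least 1 CPM (a gene's counts relative to the library size, which was scaled by TMM).

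Poly(A) RNA was sequenced from the livers of 20 wildtype C57BL/6 mice in 4 groups of 5, all labelled female and all given their AAV8 vector at 6 months of age. The vector carried Staphylococcus aureus Cas9 under the hepatocyte-specific Tbg promoter with a guide RNA, so the nuclease was directed to hepatocytes while the RNA came from whole liver. The guide was directed at HIRA, a chaperone that deposits histone H3.3, or at the Rosa26 locus as the control, and livers were taken 3 weeks or 6 months later. All 4 groups therefore had vector and nuclease, and no group went without injection.

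Totals ran from 19916430 to 24079736 counts per library. Hepatocyte marker genes (Alb, Apoa1, Ttr, Cps1, Hnf4a and Tat) summed to between 86851 and 154335 CPM in every library (marker sums are relative to unscaled library totals), while 5 kidney tubule markers had at most 9 counts each over all libraries together. Hira itself was lower in all 5 HIRA libraries than in all 5 controls at 3 weeks. Its log2 fold change of -0.48 ± 0.14 (SE) did not pass the adjustment (edgeR adjusted p 0.197). At 6 months the groups overlapped (-0.10 ± 0.14, edgeR adjusted p 0.794, or -0.16 and 0.614 without the library described below). For the CRISPR approach used here the paper reports loss of HIRA protein by western blot, which RNA counts do not measure. For HIRA 6-month replicate 5 the Xist count was 9 and the sum of 4 Y-linked genes was 2041, whereas the other 19 libraries had 6286 to 8436 and 0 to 13. That library goes against its female label, and the 6-month fold changes and counts of the 6 genes and of the lists are given with and without it.

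The promoters of 3 of the genes are shown because these genes carry the values described below. The genes are the plasma membrane carrier with the widest separation between arms and the pair of mitochondrial carriers that were correlated from library to library. The sequences are from RefSeq on GRCm38.p6, 5′ to 3′ on the strand of the gene, and run from 250 to 51 bases before the annotated start. Capitals mark an E-box (CACGTG) or a CCAAT box (CCAAT or its reverse complement ATTGG).
Slc13a3, chr2:165473248-165473447, minus strand: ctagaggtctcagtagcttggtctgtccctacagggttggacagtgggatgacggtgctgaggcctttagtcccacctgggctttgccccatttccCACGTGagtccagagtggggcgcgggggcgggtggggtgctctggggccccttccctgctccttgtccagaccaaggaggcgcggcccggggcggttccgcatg
Slc25a1, chr16:17928270-17928469, minus strand: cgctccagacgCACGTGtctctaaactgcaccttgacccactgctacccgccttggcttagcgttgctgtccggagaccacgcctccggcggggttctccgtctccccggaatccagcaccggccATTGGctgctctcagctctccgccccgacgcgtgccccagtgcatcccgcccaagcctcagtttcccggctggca
Slc25a10, chr11:120491587-120491786, plus strand: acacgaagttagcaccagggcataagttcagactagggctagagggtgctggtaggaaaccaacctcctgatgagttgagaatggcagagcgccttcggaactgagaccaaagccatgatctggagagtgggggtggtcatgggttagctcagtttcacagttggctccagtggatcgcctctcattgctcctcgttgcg

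Of the 6 genes, 2 had an E-box in this 200-base window. It began 154 bases before the start in Slc13a3 and 239 bases before it in Slc25a1, and none of the 7 member promoters held the D-box core TTATGTAA. Among 32851 mouse promoters of the same length, searched on both strands, 4.34% held CACGTG, 0.658% held TTATGTAA, 28.4% held CCAAT and 24.6% held the GC box GGGCGG. Of the 6 members, 3 held the CCAAT box (Slc13a4, Slc13a5 and Slc25a1) and 4 the GC box (Slc13a3, Slc13a4, Slc13a5 and Slc25a1). These matches describe letters in a window and were not tested as binding sites.

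The mitochondrial carriers were far more abundant than the plasma membrane carriers in these livers. Slc25a1, which exports citrate from the matrix in exchange for malate, had the highest level per length, a mean of 128 CPM per kb of exon over the 20 libraries (range 108 to 177). Slc25a10, which exchanges malate and succinate for phosphate and sulfur oxyanions, followed at 61.9 CPM per kb (38.4 to 111). Slc13a3, the high-affinity dicarboxylate transporter of the plasma membrane, was next at 6.23 CPM per kb (3.27 to 16.4). The order of these 3 genes was the same in 20 of 20 libraries.

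Transcripts of the remaining SLC13 genes were scarce. Slc13a2, the low-affinity dicarboxylate transporter best known from the kidney brush border, averaged 0.980 CPM per kb (0.189 to 2.23), and Slc13a5, the plasma membrane citrate transporter also called NaCT, averaged 0.792 CPM per kb (0.237 to 3.64). Slc13a4, which transports sulfate rather than citrate, averaged 0.0878 CPM per kb (0.0405 to 0.141). Slc13a2 was above Slc13a5 in 15 of 20 libraries, and the order of this pair turned on the deposited FPKM scale (means of 0.927 and 1.02 FPKM), so the pair was not separated beyond its spread. Every other neighbouring pair in the order was separated in 20 of 20 libraries.

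**Figure D1:**
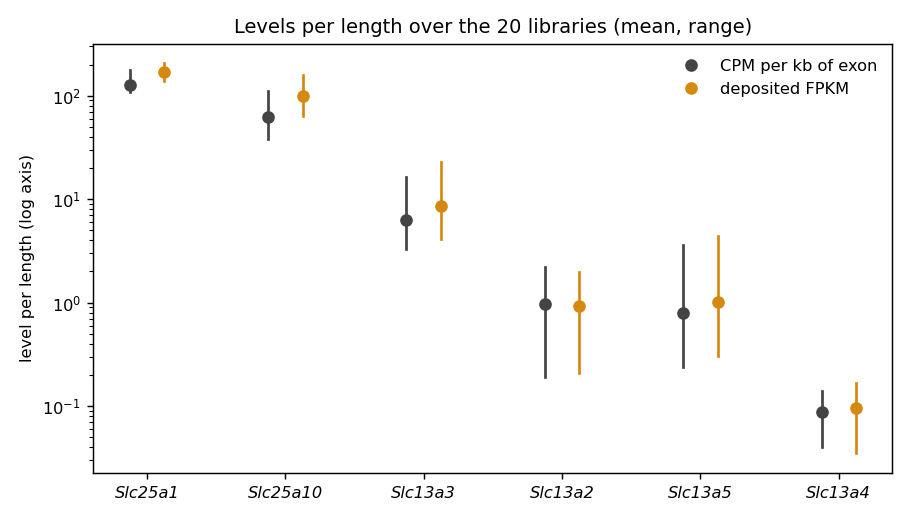
Level per length of each carrier gene on a log axis, as CPM per kb of merged exon (dark) and as the deposited FPKM (orange), with the mean (point) and range (line) over the 20 libraries. Slc25a1 and Slc25a10 lie highest, Slc13a3 lies between 3.27 and 16.4 CPM per kb, and the ranges of Slc13a2 and Slc13a5 overlap.

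Slc13a3 (ENSMUSG00000018459.15, chr2:165405028-165473230 on GRCm38, minus strand) gave the widest separation between the arms. In Rosa26 livers at 3 weeks it was measured at 51.4, 85.6, 45.7, 51.9 and 28.9 CPM in replicates 1 to 5. The HIRA livers at 3 weeks had 17.1, 21.1, 18.4, 19.3 and 22.0 CPM. All 5 HIRA libraries lay below the lowest control, and they were tightly grouped while the controls spread widely.

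The 3-week means of Slc13a3 were 52.7 ± 20.6 CPM in Rosa26 and 19.6 ± 2.00 CPM in HIRA (SD, n = 5 each), and the fitted log2 fold change was -1.43 ± 0.23 (SE), or 2.69-fold lower. This is the contrast that put the gene forward, so no p is given, and the count of members called in it (1 of 6, Slc13a3) was fixed by the choice and nothing is read from it. For background, 26 of 22867 genes (0.114%) passed both thresholds of the study (adjusted p under 0.05 and absolute log2 fold change above 1) at 3 weeks, 0.197% passed the adjusted p alone, and the arms did not overlap for 2.69% of all genes. Leaving out each library of the contrast in turn gave log2 fold changes of Slc13a3 from -1.58 to -1.18, the weakest without Rosa26 replicate 2. The call that put the gene forward held in 8 of these 10 fits and was lost without HIRA replicate 4 or 5. In bulk liver, fewer cells of a type and less RNA per cell cannot be told apart.

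At 6 months the Slc13a3 values of the arms overlapped. Rosa26 livers had 31.8, 51.2, 28.4, 40.5 and 25.9 CPM. HIRA livers had 18.9, 19.3, 32.6, 23.2 and 17.1 CPM, the last from the library that departs from its label. HIRA replicate 3 exceeded 3 of the 5 controls, and the other 4 HIRA libraries lay below every control.

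The 6-month means were 35.6 ± 10.4 CPM in Rosa26 and 22.2 ± 6.22 CPM in HIRA (SD, n = 5 each). The log2 fold change of Slc13a3 was -0.68 ± 0.23 (SE), with an unadjusted p of 0.0074 and an edgeR adjusted p of 0.145, and without HIRA replicate 5 it was -0.60 (edgeR adjusted p 0.196). Over 18 alternative fits the adjusted p of edgeR, DESeq2 or limma lay between 0.0530 and 0.299. The direction was thus the same at both times in these fits, and the 6-month difference did not pass the test.

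Across time, Slc13a3 in control livers went from a mean of 52.7 to 35.6 CPM (log2 fold change -0.57 ± 0.23, SE), and in HIRA livers from 19.6 to 22.2 CPM (0.18 ± 0.23, or 0.26 ± 0.24 without HIRA 6-month replicate 5). The fitted guide effect at 6 months minus that at 3 weeks was 0.75 ± 0.32 (SE), and 0.83 ± 0.33 without that library. These values share the 3-week libraries and are descriptive.

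**Figure D2:**
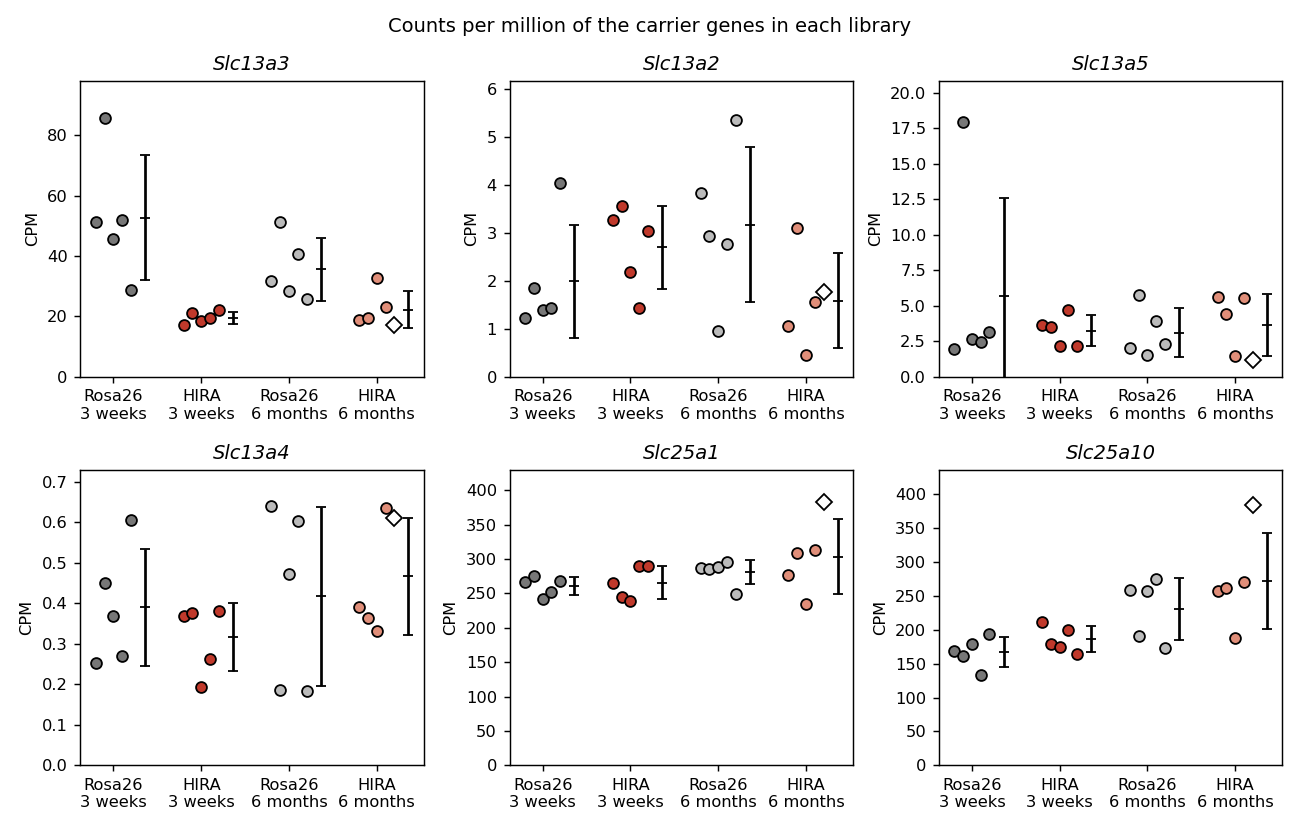
CPM of the 6 carrier genes in each of the 20 libraries (points, in order of replicate number), with the mean ± SD of each group of 5 beside them and the axis of each panel starting at 0. The white diamond is the HIRA 6-month library with male-type sex-linked counts. The Slc13a3 values of HIRA livers at 3 weeks (17.1 to 22.0 CPM) lie below all Rosa26 values of that time, Slc13a5 has 1 control library at 18.0 CPM, whose group SD bar is truncated at 0, and the diamond is the highest point for Slc25a1 and Slc25a10.

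Genes of the circadian clock separated the 3-week arms in the same libraries as Slc13a3. A clock index was taken as the mean centred log2 CPM of 9 evening genes minus that of 5 morning genes. It ran from -2.44 to -1.50 in Rosa26 and from -0.96 to 2.58 in HIRA at 3 weeks, without overlap. At 6 months it ran from -0.38 to 1.89 in Rosa26 and from -1.67 to 2.55 in HIRA, a range that did not change without HIRA replicate 5. Of the evening genes, 5 of 9 were higher in HIRA livers at 3 weeks (Dbp, Ciart, Per3, Nr1d2 and Tef, edgeR adjusted p under 0.05). DESeq2 called 6 there, and 6 had an unadjusted p under 0.05 by edgeR. Of all genes, 0.197%, 1.0% and 8.87% met these cuts. At 6 months edgeR called 0 of 9, DESeq2 called 1 and 1 had an unadjusted p under 0.05, beside 1.31%, 3.93% and 15.5% of all genes. Both tools gave the same counts of calls at 6 months without HIRA replicate 5. The 3-week edgeR count was 0 of 9 without HIRA replicate 4 or 5 or without Rosa26 replicate 1, 2 or 4. It was 1 without HIRA replicate 1 or Rosa26 replicate 3, and 2 without HIRA replicate 2. Of the morning genes 0 of 5 passed by edgeR at either time, with 3 at an unadjusted p under 0.05 and 1 called by DESeq2 at 3 weeks and 0 of each at 6 months.

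The clock lists also differed with time in the controls, whose index ranges at 3 weeks and 6 months did not overlap. There 4 of 9 evening genes were higher at 6 months by edgeR (Dbp, Nr1d2, Per3 and Tef). DESeq2 called 6, and 7 had an unadjusted p under 0.05 by edgeR. Of all genes, 0.324%, 2.24% and 12.8% met these cuts. The evening genes had a median log2 fold change of 1.35. The edgeR count was 0 without Rosa26 replicate 1, 3 or 4 at 3 weeks or replicate 3 or 4 at 6 months. It was 1 without replicate 2 at 3 weeks and 2 without replicate 1 or 5 at 6 months. By limma on FPKM the count was 0. Of the morning genes 0 of 5 passed by edgeR and 1 by DESeq2, with 5 at an unadjusted p under 0.05 and a median of -0.91.

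Over the 20 libraries, log2 CPM of Slc13a3 and the clock index gave r = -0.60 (rho = -0.59), and r = -0.14 after each was centred on its group means. For Slc25a1 these were 0.57 (rho = 0.63) and 0.59, and for Slc25a10 0.60 (rho = 0.67) and 0.47. These correlations are descriptions over libraries that share groups and time points. They include HIRA 6-month replicate 5, the highest library for both mitochondrial carriers, whose clock index was 1.79. The clock's part in the values of these genes was not tested.

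The summed hepatocyte markers, a sum made up mostly of Alb, had a higher median in HIRA than in Rosa26 livers at both times, while the single markers went both ways. Of the 6, 3 had a positive log2 fold change at 3 weeks (median -0.04, range -0.46 to 0.28) and 4 at 6 months (median 0.18, range -0.33 to 0.35, and median 0.08 without HIRA replicate 5). At 3 weeks they ran from 87818 to 134763 CPM in Rosa26 (median 119058) and from 123880 to 154335 CPM in HIRA (138562). At 6 months they ran from 86851 to 113722 (96497) and from 109941 to 133442 CPM (129006, or 130953 without HIRA replicate 5, with the same range). The arms overlapped at both times, and 0 of the 6 markers were called in either guide contrast by edgeR or by DESeq2, with 1 at an unadjusted p under 0.05 at each time. Their part in the values of the carriers was not tested. Marker lists of the other liver cell types had 0 called genes in both guide contrasts by edgeR and by DESeq2. At an unadjusted p under 0.05 stood 1 lymphocyte marker at 3 weeks and 2 stellate cell and 2 endothelial markers at 6 months. That cut was met by 8.87% of all genes at 3 weeks and 15.5% at 6 months. At 6 months the log2 fold change was positive for 6 of 6 stellate cell, 5 of 5 endothelial and 5 of 5 lymphocyte markers. It was positive for 4 of 5 cholangiocyte and 0 of 6 Kupffer cell markers. The medians, in this order, were 0.50, 0.32, 0.30, 0.22 and -0.20, and 0.63, 0.43, 0.53, 0.41 and 0.03 without HIRA replicate 5. Without HIRA 6-month replicate 5 edgeR still called 0 of these markers at 6 months, and DESeq2 called 1, the stellate cell marker Dcn, which is named after its value was seen. At 3 weeks the summed level ran from 199 to 358 CPM in Rosa26 and 214 to 311 CPM in HIRA for 6 stellate cell markers, from 345 to 475 and 319 to 560 CPM for 6 Kupffer cell markers, from 163 to 222 and 176 to 212 CPM for 5 sinusoidal endothelial markers, and from 72.8 to 120.4 and 66.6 to 124 CPM for 5 cholangiocyte markers. The arms overlapped in each of these sums. At 6 months the corresponding ranges were 155 to 318 and 172 to 727 CPM (stellate), 202 to 1642 and 115 to 914 CPM (Kupffer), 100.3 to 192 and 115 to 209.97 CPM (endothelial), and 60.0 to 119.6 and 42.9 to 171 CPM (cholangiocyte). HIRA replicate 5 was the lowest HIRA library in these 4 sums, and without it the HIRA ranges began at 298 CPM (stellate), 305 CPM (Kupffer), 169.7 CPM (endothelial) and 81.0 CPM (cholangiocyte) and still overlapped the controls. The part of these cell types in the values of the carriers was likewise not tested. No marker of these lists was at 0 in every library of a group, and lymphocyte markers summed to 8.73 to 58.7 CPM over all libraries.

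Slc13a2 (ENSMUSG00000001095.5, chr11:78397087-78422217, minus strand) was low and varied from mouse to mouse. Rosa26 livers at 3 weeks had 1.22, 1.85, 1.39, 1.44 and 4.05 CPM, and HIRA livers had 3.27, 3.56, 2.18, 1.44 and 3.05 CPM. At 6 months, Rosa26 livers had 3.84, 2.94, 0.947, 2.78 and 5.37 CPM, and HIRA livers had 1.06, 3.10, 0.456, 1.56 and 1.78 CPM. The arms overlapped at both times, with HIRA on the higher side at 3 weeks and on the lower side at 6 months.

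The fitted log2 fold change of Slc13a2 was 0.44 ± 0.44 (SE) at 3 weeks and -1.002 ± 0.44 at 6 months. The latter had an unadjusted p of 0.0347 and an edgeR adjusted p of 0.277, and was -1.05 without HIRA replicate 5 (edgeR adjusted p 0.256). Adjusted p-values over 18 alternative fits with edgeR, DESeq2 or limma ran from 0.137 to 0.481. The effect at 6 months minus that at 3 weeks was -1.44 ± 0.62 (-1.49 ± 0.65 without HIRA replicate 5), given as a description. An antisense gene, Slc13a2os, overlaps its exons and had counts equal to 10.2% of those of Slc13a2. The library kit keeps strand, but whether the counting used it is not stated.

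Slc13a5 (ENSMUSG00000020805.14, chr11:72241989-72267222, minus strand) had 1 control liver far above the rest. At 3 weeks Rosa26 livers had 1.98, 18.0, 2.68, 2.48 and 3.16 CPM, and HIRA livers had 3.64, 3.47, 2.18, 4.73 and 2.19 CPM. The 6-month values were 2.01, 5.73, 1.51, 3.94 and 2.29 CPM in Rosa26 and 5.59, 4.42, 1.49, 5.57 and 1.17 CPM in HIRA. Apart from Rosa26 replicate 2 at 3 weeks, whose 360 counts compare with 39 to 68 in the rest of its group, no library exceeded 5.73 CPM and the arms overlapped throughout.

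At 3 weeks the log2 fold change of Slc13a5 was -0.80 ± 0.56 (SE), and it was 0.33 without that control library. The control livers' change with time likewise went from -0.87 ± 0.56 to 0.26 without it, so the sign of both rested on a single mouse. At 6 months, whose means do not use that library although the shared spread does, Slc13a5 stood at 0.24 ± 0.56 on that scale (edgeR adjusted p 0.897), with an SE of 0.49 in a fit of the 6-month libraries alone, and at 0.47 without HIRA replicate 5 (edgeR adjusted p 0.730).

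Slc13a4 (ENSMUSG00000029843.4, chr6:35267957-35308131, minus strand) had few counts, with 4 to 15 and 0.183 to 0.640 CPM per library. The log2 fold change was -0.30 ± 0.38 (SE) at 3 weeks and 0.14 ± 0.36 at 6 months (edgeR adjusted p 0.906), and 0.03 without HIRA replicate 5 (edgeR adjusted p 0.980).

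The mitochondrial citrate carrier Slc25a1 (ENSMUSG00000003528.15, chr16:17925223-17928219, minus strand) varied least of the 6, with a coefficient of variation of 12.2% over the 20 libraries against 27.3 to 92.2% for the others. At 3 weeks Rosa26 livers had 266, 275, 241, 252 and 269 CPM, and HIRA livers had 266, 245, 239, 290.0 and 289 CPM. At 6 months the values were 287, 285, 288, 296 and 249.7 CPM in Rosa26 and 277, 309, 235, 313 and 383 CPM in HIRA. The arms overlapped at both times, and the highest value of all came from the library that departs from its label.

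The log2 fold change of Slc25a1 was 0.03 ± 0.10 (SE) at 3 weeks. At 6 months it was 0.11 ± 0.10 (edgeR adjusted p 0.671) with means of 281 ± 18.0 and 303 ± 54.6 CPM (SD, n = 5 each), and 0.01 without HIRA replicate 5 (edgeR adjusted p 0.966), where the HIRA mean was 283 ± 36.3 CPM (SD, n = 4). The gene lies on the same chromosome as Hira, 948818 bases away from it.

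The dicarboxylate carrier Slc25a10 (ENSMUSG00000025792.9, chr11:120491840-120499187, plus strand) had 169, 161, 179.5, 133 and 193 CPM in Rosa26 livers and 211, 179, 174, 199 and 165 CPM in HIRA livers at 3 weeks. At 6 months it had 259, 191, 257, 274 and 173 CPM in Rosa26 and 257, 262, 187, 270.0 and 383 CPM in HIRA. The arms overlapped at each time, and most 6-month libraries of both arms lay above the 3-week range of 133 to 211 CPM.

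The guide effect on Slc25a10 was a log2 fold change of 0.15 ± 0.16 (SE) at 3 weeks and of 0.24 ± 0.16 at 6 months (edgeR adjusted p 0.506), or 0.08 without HIRA replicate 5 (edgeR adjusted p 0.829). With time it changed by 0.47 ± 0.16 in control livers, from a mean of 167 ± 22.7 to 231 ± 45.5 CPM (SD, n = 5 each), and by 0.55 ± 0.16 in HIRA livers, from 186 ± 19.0 to 272 ± 70.6 CPM. Without HIRA 6-month replicate 5 the latter was 0.39 ± 0.14, with a 6-month mean of 244 ± 38.2 CPM (SD, n = 4). The corresponding changes of Slc25a1 were 0.11 ± 0.10 and 0.19 ± 0.10, the latter 0.09 ± 0.09 without that library. The ranges of both genes at 3 weeks and 6 months overlapped in each arm.

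**Figure D3:**
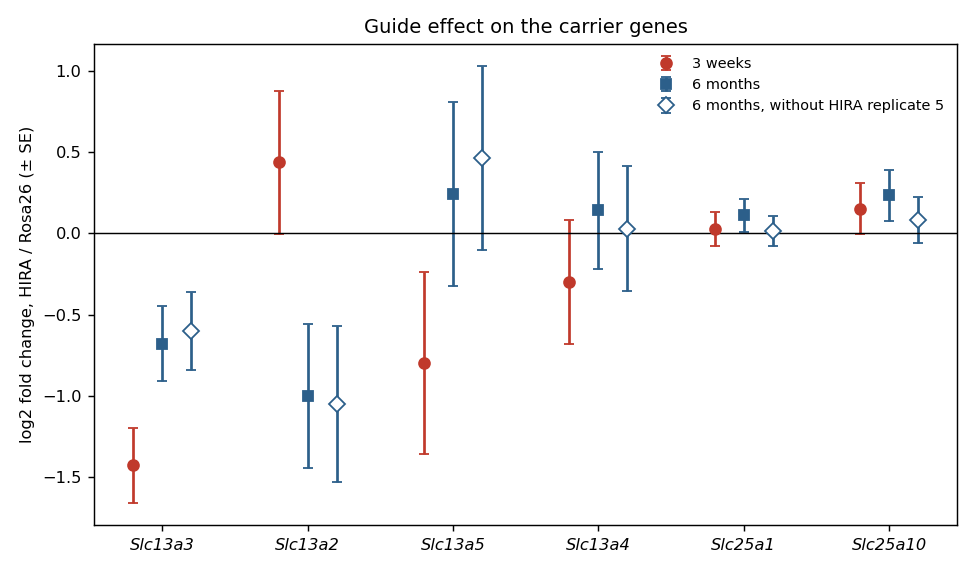
Log2 fold change of HIRA over Rosa26 livers for each carrier gene (edgeR, bars are ± SE) at 3 weeks (red circles), at 6 months (blue squares) and at 6 months without HIRA replicate 5 (open diamonds). The Slc13a3 values are below 0 at both times (-1.43 and -0.68), and those of Slc25a1 and Slc25a10 lie between 0.01 and 0.24.

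The 6-month contrast compares 6-month libraries alone, although its spread was estimated from all 20 libraries. In it 0 of the 6 passed by edgeR and 0 by DESeq2, and 2 had an unadjusted p under 0.05 by edgeR (Slc13a3 and Slc13a2), as did 15.5% of all genes. In a fit of the 6-month libraries alone the unadjusted p of Slc13a2 was 0.0652 and that of Slc13a3 0.0078 (edgeR adjusted p 0.426 and 0.229). DESeq2 called 3.93% of all genes by the adjusted p alone. In this contrast 0.332% of genes passed both thresholds, 1.31% the adjusted p alone, and 1.74% the adjusted p alone without HIRA replicate 5, where 0 of the 6 passed as well. The arms did not overlap for 0 of 6 members and for 3.15% of all genes. From 3 weeks to 6 months in the controls, a contrast that uses 3-week libraries, so that members' values in it are descriptions without a test, 0.162% of all genes passed both thresholds, 0.324% passed the adjusted p alone, and 3.5% did not overlap.

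Slc25a1 and Slc25a10 were correlated from library to library. Their log2 CPM had r = 0.78 (rho = 0.66) over the 20 libraries, 0.72 after centring on group means, 0.65 without HIRA 6-month replicate 5, and 0.68 without the 2 libraries farthest from the median of Slc25a1. The ratio of their levels in CPM per kb was 2.14 to 3.03 in Rosa26 and 2.01 to 2.81 in HIRA livers at 3 weeks. At 6 months it was 1.73 to 2.38 and 1.60 to 2.00 (1.72 to 2.00 without HIRA replicate 5). Both arms thus had overlapping ratios at each time. The median ratio was 2.52 in Rosa26 and 2.18 in HIRA livers at 3 weeks. At 6 months it was 1.78 and 1.85 (1.87 without HIRA replicate 5). On the deposited FPKM scale the pair lay closer, with means of 170 and 98.9 FPKM over the 20 libraries beside 128 and 61.9 CPM per kb. The libraries share groups and normalization, and the correlation is given as a description. The 5 genes most like each of these carriers, named below, had a higher r (0.82 to 0.91).

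**Figure D4:**
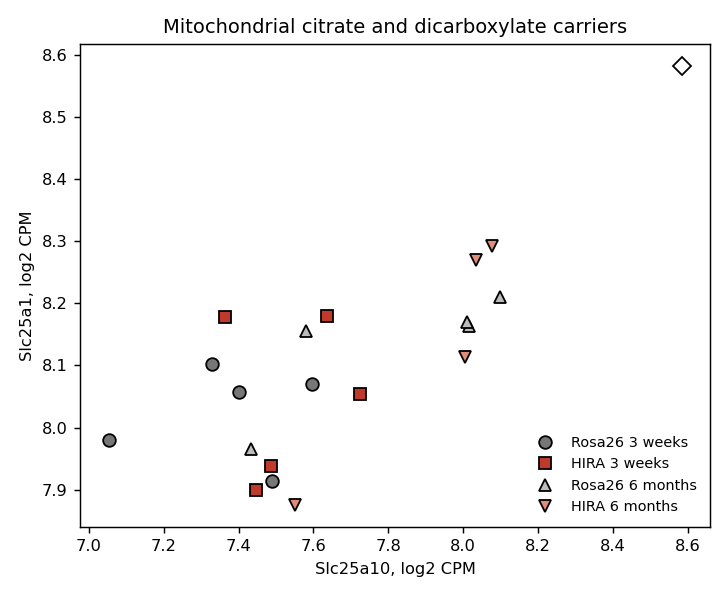
Log2 CPM of Slc25a1 against that of Slc25a10 in the 20 libraries, with a symbol for each group and a white diamond for HIRA 6-month replicate 5. The points rise together (r = 0.78), and the diamond is the farthest point at the upper right (without it r = 0.65).

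Slc13a3 and Slc25a10 had a negative r of -0.46 (rho = -0.43), and of -0.45 after centring on group means. It was -0.39 without HIRA 6-month replicate 5 and -0.29 without the 2 libraries farthest from the median of Slc13a3. This too is a description over libraries that share groups. The ratio of Slc25a1 to Slc13a3 per length had a median of 12.5 (7.74 to 22.4) in Rosa26 and 31.7 (28.0 to 37.5) in HIRA livers at 3 weeks, and of 21.7 (13.4 to 24.5) and 35.4 (17.4 to 54.1) at 6 months, the latter 34.0 (17.4 to 38.5) without HIRA replicate 5. The arms did not overlap in this ratio at 3 weeks, as follows from Slc13a3, and overlapped at 6 months. Slc13a3 and Slc13a5 had r = 0.32, which became -0.07 without Rosa26 3-week replicate 2. The scarce Slc13a4 had r = 0.63 with Slc25a10 (rho = 0.57, 0.71 after centring on group means, 0.59 without HIRA 6-month replicate 5). With only 4 to 15 counts per library of Slc13a4, nothing is read from it.

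The genes whose pattern was most like each carrier were taken from 12902 other genes by Pearson's r of log2 CPM over the 20 libraries. For Slc13a3 these were Qsox1, a sulfhydryl oxidase (r = 0.83), Frmd8 (0.83), Klhl25 (0.82), Ppib, a peptidyl-prolyl isomerase of the endoplasmic reticulum (0.82), and Rnf121 (0.80). Their r fell to between 0.57 and 0.67 after centring on group means, where 0 of the 5 were still among the top 5, and 1 of the 5 was without Rosa26 3-week replicate 2. For Slc13a2 they were Abcc6, an ATP-binding cassette exporter (0.82), Ak3, a mitochondrial adenylate kinase (0.81), Mfsd4b1 (0.80), Dlg3 (0.79) and Tmem94 (0.79), of which 4 of 5 stayed in the top 5 without HIRA 6-month replicate 5, 4 of 5 without Rosa26 3-week replicate 2, and 2 of 5 after centring.

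For Slc25a10 the list was Fitm1 (r = 0.91), which acts in lipid droplet formation, the flagellin receptor Tlr5 (0.90), the acyl-CoA synthetase Acsf2 (0.88), Tmem134 (0.87) and Sec22c (0.87), and 4 of the 5 were still in the top 5 without HIRA 6-month replicate 5 but 0 of the 5 after centring on group means. For Slc25a1 it was Pcsk4 (0.85), Babam2 (0.83), Dennd1a (0.83), Bckdha, a subunit of the branched-chain ketoacid dehydrogenase (0.82), and Reep6 (0.82), of which 0 of 5 stayed in the top 5 without that library, with r of 0.65 to 0.77. For Slc13a5 it was Mpnd (0.81), Gmds (0.81), Isyna1 (0.77), Syne4 (0.77) and 1 unnamed gene model, and 0 of 5 stayed without Rosa26 3-week replicate 2, where r for the 4 named genes was 0.54 to 0.67, and 1 of 5 without HIRA 6-month replicate 5.

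The wider pathway was examined through 4 lists, none of which held the 6 carriers. As the background for their counts, an unadjusted p under 0.05 by edgeR was found for 8.87% of all genes at 3 weeks, 15.5% at 6 months and 12.8% with time in the controls. DESeq2 called 1.0%, 3.93% and 2.24% of genes by the adjusted p alone, and 5.08% at 6 months without HIRA replicate 5. Among 14 other mitochondrial carriers, 0 were called at 3 weeks by edgeR and 0 by DESeq2, with 1 at an unadjusted p under 0.05. The median log2 fold change was -0.03, beside -0.01 over all genes tested. Smallest p-values belonged to the ornithine carrier Slc25a15 (-0.24 ± 0.11, edgeR adjusted p 0.530) and the pyruvate carrier subunit Mpc1 (-0.13, edgeR adjusted p 0.741). At 6 months 1 of the 14, Slc25a22, was higher by edgeR (adjusted p alone) and 2 were called by DESeq2 (Slc25a22 and Slc25a15), while 5 of the 14 had an unadjusted p under 0.05. Of the 14, 4 had a positive log2 fold change, with a median of -0.10 (-0.07 without HIRA replicate 5) beside 0.03 over all genes.

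Slc25a22 (ENSMUSG00000019082.18), a carrier that moves glutamate into mitochondria, had 174, 158, 140.3, 173 and 185 CPM in Rosa26 livers and 268, 279, 258, 304 and 250.2 CPM in HIRA livers at 6 months. The lowest HIRA library exceeded the highest control. Its log2 fold change came to 0.71 ± 0.13 (SE, edgeR adjusted p 0.0141), and it was 0.74 without HIRA replicate 5 (edgeR adjusted p 0.00985). Leaving out each library in turn gave 0.66 to 0.75 and the call held in 10 of 10 fits, while in a fit of the 6-month libraries alone the edgeR adjusted p was 0.0868.

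The level of Slc25a22 in HIRA livers at 6 months (272 ± 20.8 CPM, SD, n = 5, or 277 ± 19.5 CPM, n = 4, without replicate 5) was near that of both arms at 3 weeks (245 ± 38.3 in Rosa26 and 252 ± 50.6 in HIRA), and the 6-month controls were the group that stood lower (166 ± 17.4 CPM). The controls' change with time was -0.56 ± 0.13 (edgeR adjusted p 0.0541), and 6 of 17 alternative fits called it, with adjusted p from 0.00456 to 0.141 by edgeR, DESeq2 or limma. The guide effect at 3 weeks was 0.04 ± 0.13 (edgeR adjusted p 0.973), and the difference between the effects at both times was 0.67 ± 0.18, which did not pass (edgeR adjusted p 0.614, and 0.460 without HIRA replicate 5). In the controls' time contrast, 0 of the 14 carriers passed by edgeR and 1, Slc25a22, by DESeq2.

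Of 21 enzymes and subunits of the citric acid cycle and its entry, 0 were called in either guide contrast by edgeR. At 3 weeks the median log2 fold change was -0.04, 2 genes had an unadjusted p under 0.05 and DESeq2 called 0. The smallest p-values were those of Pdhb, a pyruvate dehydrogenase subunit (0.22 ± 0.09, edgeR adjusted p 0.472), and the pyruvate carboxylase Pcx (-0.30 ± 0.13, edgeR adjusted p 0.492). At 6 months 10 of 21 had an unadjusted p under 0.05, DESeq2 called 5 (Dld, Idh3b, Sdhb, Sdhc and Sdhd, all below 0, and 7 without HIRA replicate 5), and the median was -0.11, or -0.20 without HIRA replicate 5, with 0 edgeR calls in both. The leading genes were Idh3b, a subunit of the NAD-dependent isocitrate dehydrogenase (-0.27 ± 0.09, edgeR adjusted p 0.137), and Sdhb, the iron-sulfur subunit of succinate dehydrogenase (-0.31 ± 0.10, edgeR adjusted p 0.139).

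In control livers 1 of the 21 changed with time. Idh3a, the catalytic subunit of that isocitrate dehydrogenase, was lower at 6 months (-0.54 ± 0.12, edgeR adjusted p 0.0497), the list median was 0.09, and DESeq2 called 2 genes (Idh3a and Suclg2). The edgeR call of Idh3a held in 3 of 10 fits that left out a library, where the adjusted p ran from 0.0316 to 0.143 and the log2 fold change from -0.61 to -0.48. It was lost without Rosa26 replicates 1, 2, 3 or 4 at 3 weeks and without replicates 3, 4 or 5 at 6 months, and also in a fit of the 10 control libraries alone (edgeR adjusted p 0.0588) and by limma on FPKM (adjusted p 0.0805). Genes that DESeq2 alone called are named after their values were seen.

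Of 13 genes that use citrate in the cytosol for acetyl-CoA, NADPH and fatty acids, 0 were called in either guide contrast by edgeR or by DESeq2. At 3 weeks 10 of 13 had a positive log2 fold change with a median of 0.19, and 1 had an unadjusted p under 0.05. Lowest in p were the acetyl-CoA carboxylase Acaca (0.40 ± 0.12, edgeR adjusted p 0.238) and the elongase Elovl6 (0.58 ± 0.28, edgeR adjusted p 0.573). At 6 months the median was -0.19 (-0.22 without HIRA replicate 5, with 0 edgeR calls), 2 genes had an unadjusted p under 0.05, and the leading values were those of the cytosolic aconitase Aco1 (-0.20 ± 0.09, edgeR adjusted p 0.252) and the malate dehydrogenase Mdh1 (-0.19 ± 0.09, edgeR adjusted p 0.307). With time in the controls 0 of 13 were called by either tool, 2 had an unadjusted p under 0.05 and the median was 0.23.

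Among other plasma membrane transporters of carboxylates and sulfate, 9 of 12 were tested. Slc13a1, Slc22a6 and Slc22a8, transporters of the kidney tubule, had 1, 3 and 2 counts in all 20 libraries together and were not tested. Of the 9, 0 were called in the guide contrasts or with time by edgeR or by DESeq2, with 2, 0 and 2 at an unadjusted p under 0.05 at 3 weeks, at 6 months and with time. At 3 weeks the lactate and pyruvate transporters Slc16a7 (0.28 ± 0.11, edgeR adjusted p 0.471) and Slc16a1 (-0.47 ± 0.20, edgeR adjusted p 0.482) had the smallest p-values. At 6 months the list median was -0.02 (0.02 without HIRA replicate 5, with 0 edgeR calls), and the smallest p-values were those of the organic anion transporter Slc22a7 (-0.60 ± 0.31, edgeR adjusted p 0.351) and the sulfate transporter Slc26a1 (-0.16, edgeR adjusted p 0.561).

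**Figure D5:**
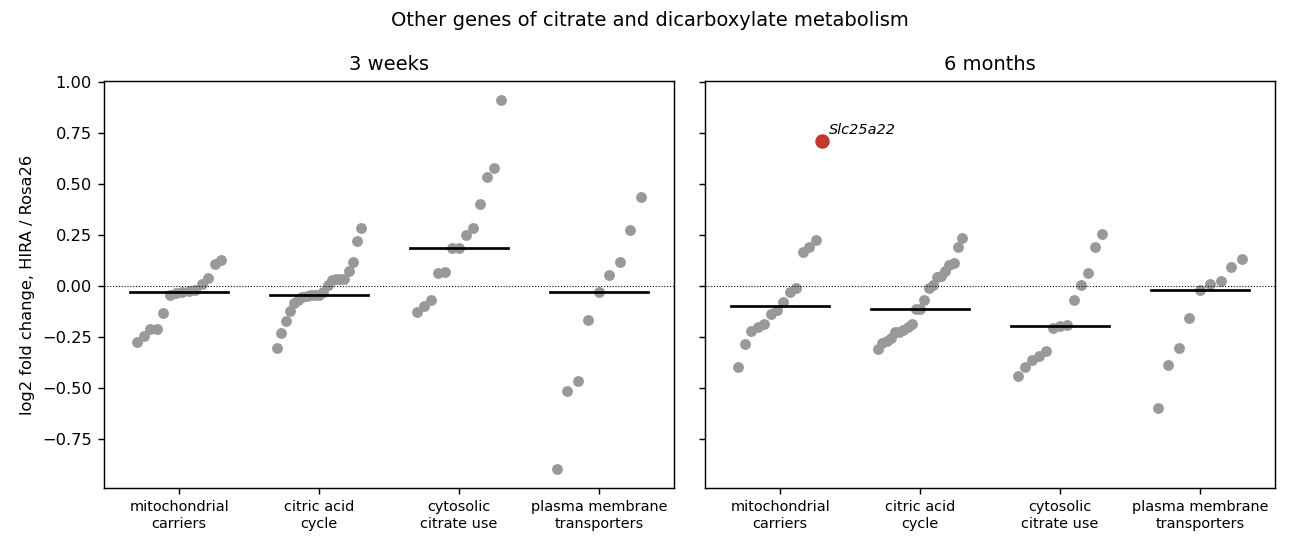
Log2 fold change of HIRA over Rosa26 livers for each tested gene of the 4 lists (14, 21, 13 and 9 genes) at 3 weeks and at 6 months, with the list median as a bar. The 1 gene with an edgeR adjusted p under 0.05 is Slc25a22 at 6 months (red, 0.71), and the medians lie between -0.19 and 0.19.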

How the data were processed

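Per the labels, liver RNA of 20 mice was sequenced with a strand-keeping poly(A) kit. The authors aligned the reads with STAR to mm10 (GRCm38) and deposited a table of raw, unnormalized gene counts. Their processing notes also name HTSeq and Cufflinks, and the paper's methods name HOMER for the counting. FPKM values that the authors deposited were used as an alternative, as log2(FPKM + 1), and the tool behind them is not given in the sources used here. Of the FPKM cells 629498 were blank, 0 of them for the 6 genes.

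Groups and replicate numbers came from the titles. Genes with under 10 counts in total were left out, as in the study (9700 genes with 1 to 9 counts and 22854 with none). The test was edgeR 4.0.16 (TMM, glmQLFit and glmQLFTest, R 4.3.3) on all 20 libraries with 1 mean per group, Benjamini-Hochberg over 22867 genes. Log2 CPM had a prior count of 2. The fit was checked on simulated data. The alternatives were DESeq2 1.42.0, limma 3.58.1 on FPKM, RLE size factors, other filters, only the contrast's libraries, a replicate block and leaving out each library.

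The members and lists were chosen with earlier results of these data known. Named genes were the members, the 5 genes most like each, Hira, up to 3 called genes per list and direction and, with none called, the 2 with the smallest p. Exon lengths are from GENCODE M21, which held 98.7% of the identifiers. No replicate pair was identical or within sampling noise. Each mouse was a separate animal per the series' design. The sex is female in the labels and a figure legend of the paper, and male in the paper's text.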

Additional observations from a re-analysis of the deposited data

Results flagged for a closer look

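In 2 of the 24 groups of 5 values (6 genes in 4 groups), 1 library stood apart from the rest by Dixon's ratio of the gap to the range. Chance alone sets about 1 in 20 groups apart in this way. Slc13a5 in Rosa26 3-week replicate 2 was at 4.17 log2 CPM, with the other 4 controls at 1.05 to 1.70. Slc25a1 in Rosa26 6-month replicate 5 was at 7.96 log2 CPM, with the other 4 at 8.16 to 8.21. In the same library Slc25a10 was also the lowest of its group, at 173 CPM.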

How the results depend on the processing

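The study's thresholds gave 26 genes at 3 weeks, 76 at 6 months and 37 with time in the controls. DESeq2 gave 69, 127 and 156, a fit of only the libraries compared 61, 0 and 67, and limma on log2(FPKM + 1) 8, 18 and 4. With edgeR the 0 calls at 6 months stood beside 2629 genes at an unadjusted p under 0.05. DESeq2 without HIRA 6-month replicate 5, chosen after seeing the data, gave 182 at 6 months. Leaving out each library gave 3 to 30, 18 to 109 and 1 to 54. At 6 months the same omissions moved Slc13a2 between -1.40 and -0.73, Slc13a3 between -0.86 and -0.51, Slc13a4 between -0.04 and 0.35, Slc13a5 between 0.03 and 0.59, Slc25a1 between 0.01 and 0.19 and Slc25a10 between 0.08 and 0.34 (log2 fold changes). Slc13a4 changed sign without Rosa26 6-month replicate 2 (-0.040) and without replicate 5 (-0.044), and Slc25a1 in DESeq2 without HIRA 6-month replicate 5 (-0.0041). At 3 weeks the ranges were 0.31 to 0.87 for Slc13a2, -0.41 to -0.08 for Slc13a4, -1.01 to 0.33 for Slc13a5, -0.01 to 0.06 for Slc25a1 and 0.08 to 0.21 for Slc25a10. With time they were 0.40 to 1.10, -0.10 to 0.32, -1.21 to 0.26, 0.08 to 0.15 and 0.39 to 0.55 for the same genes, and -0.73 to -0.32 for Slc13a3. The causes were not tested. Slc13a4 gave no value under the filter of 1 CPM in 5 libraries.

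Of the 30 pairs of libraries with the same replicate number, 14 correlated above 0.1 (-0.31 to 0.33), and 2 of 10 correlated best with their own number in the other arm, so the numbers were not taken to pair mice. With the replicate block the counts were 27, 72 and 61, Slc13a3 at 6 months was -0.65 (edgeR adjusted p 0.119) and Slc13a2 was -1.001 (edgeR adjusted p 0.153). The block changed no call of the 6 genes at 6 months and brought the controls' change of Slc25a22 with time past the threshold (edgeR adjusted p 0.0492), as did DESeq2, both other filters, only the libraries compared, and leaving out Rosa26 3-week replicate 2.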
